A study of Chelon labrosus with 24 samples.

Results

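Catalase, AOX, PMP70 and MF1 are 4 of the 160 genes on a custom oligonucleotide array. The array was hybridised with RNA from livers of the thicklip grey mullet (Chelon labrosus), a coastal fish used as a sentinel of pollution. They were found by the gene name that the array design gives each probe, ignoring case and punctuation, and make up 16 of its probes. The fish were held in cages in Pasaia harbour, and 24 one-colour arrays cover 4 groups of 6 livers: inner harbour at the second sampling, outer harbour at the second sampling, inner harbour at the first sampling and outer harbour at the first sampling. The sample labels date the second sampling to day 21 and the first to day 5, whereas the series description counts 15 and 3 days in the cage, and the samplings are therefore named by their order. All groups were immature fish kept in the field, and the groups used here include no uncaged fish. Each site was 1 place in the harbour, so a difference between sites is a difference between these 2 places. Nothing in the labels says whether a numbered liver sample is 1 fish, so p-values here cover the spread between samples only.

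Peroxisomes break down very long chain fatty acids and bile acid precursors, and their oxidases release hydrogen peroxide. AOX is the usual abbreviation of peroxisomal acyl-CoA oxidase, which carries out the first and peroxide-producing step of that β-oxidation. Catalase splits the peroxide inside the same organelle, and PMP70 is an ABC transporter of the peroxisomal membrane, also called ABCD3, which takes up fatty acyl substrates. In rodent liver, ligands of the receptor PPARα multiply peroxisomes and raise transcription of acyl-CoA oxidase, and peroxisome proliferation has been used in fish and mussels as a sign of exposure to organic pollutants. The array gives only the letters AOX, PMP70 and MF1, with no description. What MF1 stands for is not settled by the array, so no role is given to it and the name peroxisomal rests on the other genes.

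Each gene had 4 probes of 55 bases, printed as 4 spots each, and the 4 probes of a gene overlap within a single short stretch of its transcript. The brightest probe of each gene, from which the values below come, is printed 5′ to 3′ as the array design gives it, because every level of the gene rests on this one stretch. Capitals mark the bases that all 4 probes of the gene share. No genome position is given in the array files for any of them.
Catalase probe 4: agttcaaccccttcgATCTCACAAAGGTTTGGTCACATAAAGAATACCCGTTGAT
AOX probe 1: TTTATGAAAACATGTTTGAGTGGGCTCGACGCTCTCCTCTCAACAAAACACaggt
PMP70 probe 4: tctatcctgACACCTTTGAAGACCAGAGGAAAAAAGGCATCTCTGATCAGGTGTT
MF1 probe 3: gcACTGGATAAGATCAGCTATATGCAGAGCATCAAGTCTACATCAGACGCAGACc

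The shared core is 40 bases long for catalase, 51 for AOX, 46 for PMP70 and 52 for MF1, and none of the 4 cores occurs in a probe of another gene on the array. G and C make up 41.8% of the printed catalase probe, 43.6% of those of AOX and PMP70 and 47.3% of that of MF1. Because the probes of a gene share most of their bases, they are repeated readings of one target and not independent evidence. Across the 24 arrays the lowest Pearson correlation between 2 probes of a gene was 0.997 for catalase, 0.995 for AOX, 0.988 for PMP70 and 0.958 for MF1. These correlations are descriptions over arrays that share slides and groups.

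Each of the 3 slides carries 8 arrays, 2 from every group. Between 371 and 484 probes were well above background per array, and 476 probes of 129 genes were bright enough to be tested. The arrays of the outer harbour at the second sampling had the fewest such probes, 371 to 455 with a median of 434, against 458 to 482 with a median of 472 in the outer harbour at the first sampling. The 2 samplings fill different rows of every slide, which means that the effects of sampling and of row cannot be told apart. 7 of 7 liver genes on the marker list (hepcidin, α2-macroglobulin, haptoglobin, transferrin, ApoE, CYP7 and complement C3) were well above background on all 24 arrays, and no probe named albumin was found.

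All 16 probes of the 4 genes passed the filter on dim probes. The catalase and AOX probes were well above background on all 24 arrays. Of the PMP70 probes, 3 and 4 were well above background on 24 arrays, probe 2 on 23 and probe 1 on 22. Those missing were outer harbour livers at the second sampling, number 4 for probes 1 and 2 and number 5 for probe 1. Each MF1 probe was well above background on 22 arrays, and the missing ones were 2 of the 6 outer harbour livers at the second sampling, numbers 2 and 4. Median background-corrected signals of the brightest probe ran over the 4 groups as 397 to 1280 units for catalase, 78.6 to 257 for AOX, 52.0 to 91.0 for PMP70 and 21.8 to 50.4 for MF1. The 4 spots of a probe on 1 array differed by a median SD of 0.0815 log2 units for catalase, 0.0864 for AOX, 0.123 for PMP70 and 0.182 for MF1. Livers of 1 group differed far more, with SDs of 0.421 for catalase, 0.501 for AOX, 0.411 for PMP70 and 0.602 for MF1, around the median of 0.433 over all tested probes. In bulk liver RNA, fewer cells that express a gene and less of its RNA per cell cannot be told apart.

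Levels below are log2 signals relative to the 75th percentile of the same array, so a value of -1 is 1 log2 unit below that percentile. They are compared within a gene and not between genes. Differences were tested with limma over all 24 arrays, and a probe counted as called at an adjusted p (Benjamini-Hochberg over 476 probes) under 0.05.

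In the outer harbour all 4 genes were lower at the second sampling than at the first. Catalase was 2.79-fold lower, AOX 2.69-fold and PMP70 2.00-fold. MF1 was 2.14-fold lower, with 2 of its 6 second-sampling livers not well above background. 16 of the 16 probes were called lower, where 13.4% of all tested probes were called lower in this comparison, 3.15% higher and 16.6% in either direction. They make up 25.0% of the 64 probes called lower, but the 4 probes of a gene are repeated readings of one target. By the brightest probe of each gene, 17 of 129 genes were called lower, these 4 genes among them. In the inner harbour none of the 16 probes was called.

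Catalase lay between -3.11 and -2.18 in the outer harbour livers at the second sampling, with a median of -2.63, against -1.50 to -0.82 with a median of -1.18 at the first sampling. The 6 livers of the second sampling were all below the 6 of the first. The difference was -1.48 ± 0.24 log2 units (SE, n = 6 each; limma adjusted p = 0.000113), with a 95% interval of -1.98 to -0.98. Within the 3 slides it was -1.79, -1.50 and -1.15.

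AOX lay between -5.45 and -4.27 in the outer harbour at the second sampling, with a median of -4.80, against -4.33 to -2.24 with a median of -3.51 at the first sampling. The groups overlapped only through outer harbour liver 3 of the second sampling, at -4.27, and liver 1 of the first sampling, at -4.33. The difference was -1.43 ± 0.28 (SE, n = 6 each; limma adjusted p = 0.000839), with a 95% interval of -2.02 to -0.84. Within the slides it was -0.87, -1.63 and -1.79. The outer harbour livers of the first sampling were the most scattered group of AOX, with an SD of 0.80 against 0.24 to 0.40 in the other groups. Livers 8, 2 and 4 of that group stood above the highest inner harbour liver of either sampling.

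PMP70 lay between -6.33 and -5.06 in the outer harbour at the second sampling, with a median of -5.55, against -4.91 to -3.66 with a median of -4.75 at the first sampling. The groups did not overlap, and first-sampling liver 4 stood highest by far. The difference was -1.002 ± 0.24 (SE, n = 6 each; limma adjusted p = 0.00468). Within the slides it was -0.59, -1.86 and -0.56. The largest value came from slide 2, which holds first-sampling liver 4 and also second-sampling liver 4, the lowest of its group at -6.33. The part of each liver was not tested.

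MF1 lay between -8.53 and -6.12 in the outer harbour at the second sampling, with a median of -6.82, against -6.23 to -5.31 with a median of -5.87 at the first sampling. The groups overlapped through liver 5 of the second sampling and livers 2 and 8 of the first. The difference was -1.09 ± 0.33 (SE, n = 6 each; limma adjusted p = 0.0245), with -1.61, -0.90 and -0.78 within the slides, and it rests in part on 2 second-sampling livers whose MF1 signal was not well above background. Without outer harbour liver 2 of the second sampling it was -0.78 (adjusted p = 0.0713), and without outer harbour liver 3 of the first sampling -0.99 (adjusted p = 0.0631). The MF1 call was also lost in 7 of 13 other ways of processing the arrays, with differences between -1.37 and -0.23 over all 13.

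**Figure D1:**
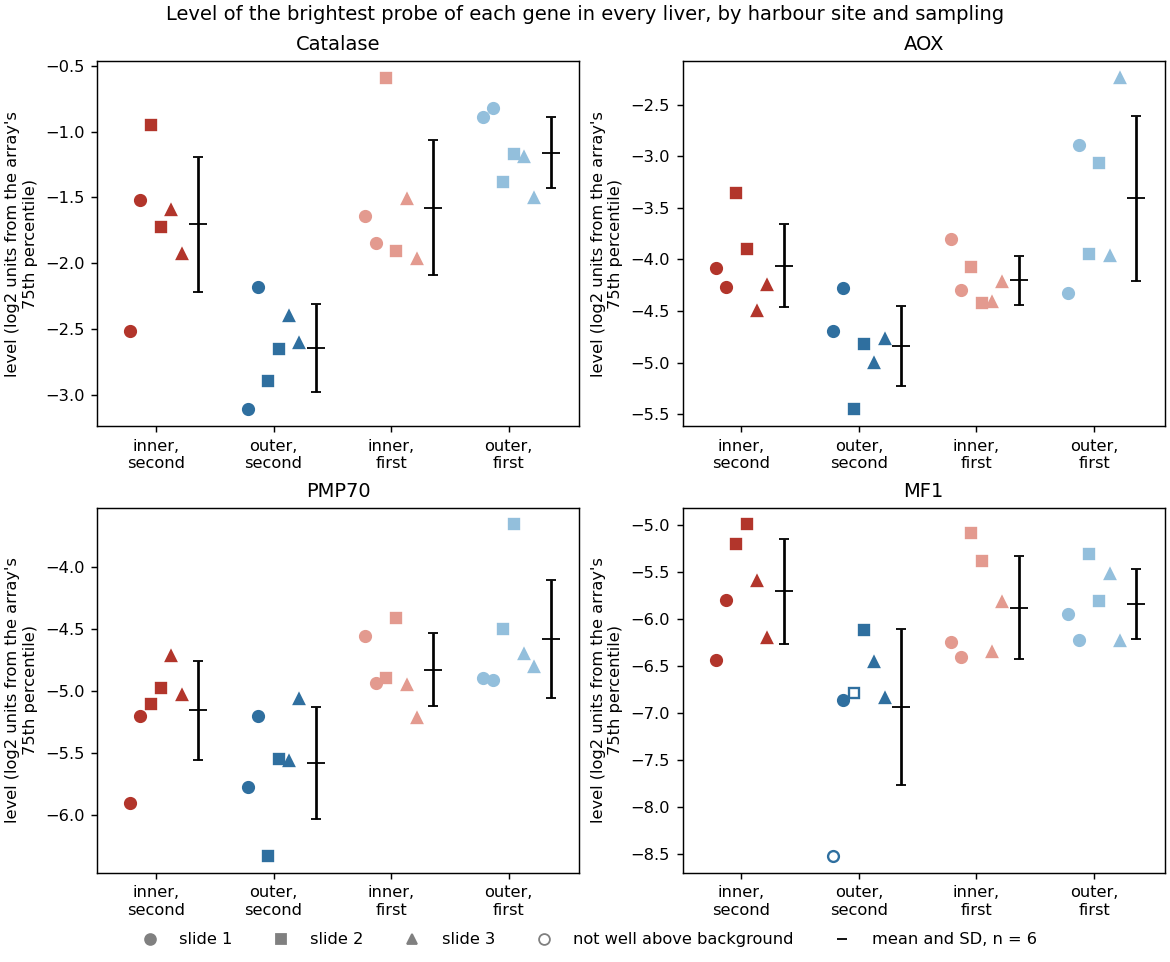
Level of the brightest probe of each gene in every liver (y axis, log2 units from the array's 75th percentile) by site and sampling (x axis, 6 livers each). Point shapes are slides, open points are signals not well above background, and bars are the mean and SD. For catalase and PMP70 the outer harbour livers of the second sampling all lie below those of the first sampling, and for AOX and MF1 these groups overlap by a few livers.

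8 of the 16 probes, the 4 of catalase and the 4 of PMP70, had outer harbour groups that did not overlap between samplings, where 10.9% of all tested probes had such groups. Among the 129 tested genes, ordered from the lowest difference in the outer harbour, catalase ranked 4, AOX 5, MF1 8 and PMP70 11. The calls of catalase, AOX and PMP70 in this comparison held in all 14 other ways of processing and with any of the 12 arrays left out. Over the 14, the limma adjusted p reached at most 0.00116 for catalase and 0.0111 for AOX. For PMP70 it reached 0.0455, close to the threshold, with differences of -1.28 to -0.47. The size of the differences depends on how arrays are scaled to each other. The median over all tested probes in this comparison moved between -0.36 and 0.26 over 8 scalings. Relative to that median, catalase lay at -1.41 to -1.15, AOX at -1.35 to -1.002, PMP70 at -0.92 to -0.55 and MF1 at -1.01 to -0.31. All 16 probes were below the median under each of the 8 scalings. Scalings that shift a whole array by 1 value cannot change a difference relative to that median. Only quantile normalization, the deposited log2 values and normexp background correction could move it, so the 8 are not separate checks.

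2 of the 7 liver markers moved in the same comparison, in opposite directions: ApoE, a lipoprotein component, was lower (-4.28 ± 0.39 log2 units, limma adjusted p = 1.48e-08) and CYP7, named like the cytochrome of bile acid synthesis, was higher by 1.20 ± 0.29 (adjusted p = 0.00549). A summed level is the log2 of the markers' signals added up, so the brightest genes weigh most. The summed level of the 7 markers lay between 5.61 and 6.12 in the outer harbour at the second sampling and between 5.36 and 7.31 at the first. In the former group transferrin averaged 4.62 and α2-macroglobulin 4.34, against -4.11 for ApoE and -2.82 for CYP7. The sum therefore hardly reflects ApoE and CYP7. Trypsin, the marker of exocrine pancreas, which fish can carry around liver vessels, gave a difference of 2.68 ± 1.46 that did not pass the test (adjusted p = 0.237), with levels of -2.74 to 3.97 at the second sampling against -3.69 to 1.23 at the first. The summed level of 2 leukocyte genes, an immunoglobulin and MHC_II, was -5.02 to -2.64 at the second sampling against -4.13 to -1.70 at the first, and neither gene was called. The part of these markers and of the lower number of probes above background in the 4 genes' differences was not tested.

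In the inner harbour no difference between samplings passed the test for any of the 4 genes. Of the 16 probes 0 were called and 0 had an unadjusted p under 0.05 in limma, in a comparison where 25.4% of all tested probes were called, 17.9% higher and 7.56% lower. No probe had groups that did not overlap, against 11.6% of all tested probes. None of the 14 other ways of processing gave a call.

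Catalase lay between -2.51 and -0.95 in the inner harbour at the second sampling, with a median of -1.66, against -1.97 to -0.59 with a median of -1.74 at the first, and the difference was -0.13 (95% interval -0.63 to 0.37). AOX lay between -4.50 and -3.36 with a median of -4.17 at the second sampling, against -4.42 to -3.80 with a median of -4.26 at the first, and the difference was 0.14 (-0.44 to 0.73). The groups overlapped throughout for both genes. PMP70 lay between -5.91 and -4.72 with a median of -5.07 at the second sampling, against -5.22 to -4.41 with a median of -4.92 at the first, and the difference was -0.33 (-0.82 to 0.16). MF1 lay between -6.44 and -4.99 with a median of -5.69 at the second sampling, against -6.41 to -5.08 with a median of -6.03 at the first, and the difference was 0.18 (-0.52 to 0.87). Liver 1 of the second sampling was the lowest inner harbour liver for catalase, PMP70 and MF1.

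**Figure D2:**
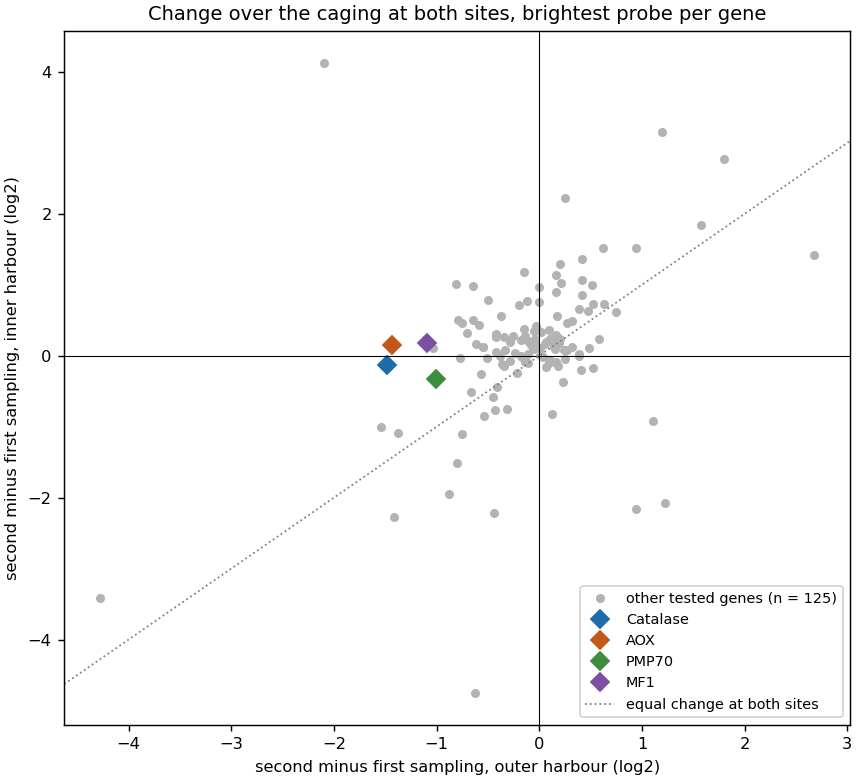
Log2 difference of the second minus the first sampling in the outer harbour (x axis) and in the inner harbour (y axis) for the brightest probe of each of the 129 tested genes, with the 4 genes as coloured diamonds. The 4 genes lie between -0.33 (PMP70) and 0.18 (MF1) on the y axis and between -1.48 and -1.002 on the x axis.

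The question whether the site difference itself changed between samplings was tested with the interaction of site and sampling. The difference, inner minus outer harbour, was higher at the second sampling for catalase and AOX. 9 of the 16 probes were called higher, where 11.1% of all tested probes were called higher, 1.05% lower and 12.2% in either direction. They were the 4 of catalase, the 4 of AOX and 1 of MF1. The site difference of catalase, 0.94 at the second sampling and -0.42 at the first, was higher at the second by 1.35 ± 0.34 log2 units (SE; limma adjusted p = 0.0126), and within the slides the value lay between 1.13 and 1.52. That of AOX, 0.78 at the second sampling and -0.80 at the first, was higher by 1.57 ± 0.40 (adjusted p = 0.0126), with 0.74 to 2.25 within the slides. The MF1 probe shown above gave 1.27 ± 0.47 (adjusted p = 0.0780), and its probe 2 gave 1.45 (adjusted p = 0.0386). The call of the probe shown was gained in 2 of 12 other ways of processing, with slide as a block among them (adjusted p = 0.0195), and without inner harbour liver 4 of the first sampling (0.0473), with adjusted p up to 0.331 over all 12. PMP70 gave 0.67 ± 0.34 (adjusted p = 0.180), with no probe called, and its within-slide values ran from -0.22 to 1.47. Under 5 of the 13 other ways of processing the catalase call was lost, with adjusted p up to 0.146, and the AOX call was lost under 1, at 0.0715. Over these 13 alternatives the values of both genes were above 0. Of the liver markers, transferrin (1.28 ± 0.37, adjusted p = 0.0264) and CYP7 (1.96 ± 0.42, adjusted p = 0.00318) were also called higher, and their part was not tested.

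At the second sampling, catalase and MF1 were higher in the inner harbour than in the outer harbour. 8 of the 16 probes were called higher, the 4 of each of these genes, where 12.8% of all tested probes were called and all of those were higher. Catalase lay between -2.51 and -0.95 in inner harbour livers and between -3.11 and -2.18 in outer harbour livers. The inner harbour livers other than number 1 were all above the highest outer harbour liver. Catalase was 1.91-fold higher, by 0.94 ± 0.24 log2 units (SE, n = 6 each; limma adjusted p = 0.0140), and by 0.63, 1.44 and 0.74 within the slides.

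MF1 lay between -6.44 and -4.99 in inner harbour livers and between -8.53 and -6.12 in outer harbour livers. It was higher by 1.23 ± 0.33 log2 units (limma adjusted p = 0.0150), and by 0.76 to 1.58 within the slides. In 2 of the 6 outer harbour livers the MF1 signal was not well above background, and over 13 other ways of processing the difference was 0.39 (normexp) to 1.41. Inner harbour livers 1 and 7 lay below the highest outer harbour liver, so the groups overlapped. The difference was 0.78 ± 0.28 for AOX (adjusted p = 0.0804) and 0.42 ± 0.24 for PMP70 (adjusted p = 0.360), and no probe of either was called. The AOX call was gained in 3 of 14 other ways of processing (75th percentile of the probes detected on all arrays, adjusted p = 0.0444; spike-in mean, 0.0214; a fit of the 2 compared groups, 0.0320) and without outer harbour liver 3 (0.0475). The 95% interval was 0.19 to 1.36 for AOX and -0.07 to 0.91 for PMP70. None of the 16 probes had groups that did not overlap, where 7.77% of all tested probes had.

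The catalase call between sites was lost with quantile normalization (0.44, adjusted p = 0.248), with scaling by the median of the probes detected on all arrays (0.53, adjusted p = 0.112) and with the authors' deposited log2 values (0.51, adjusted p = 0.182), and it kept its direction in each. The MF1 call was lost in 6 of 13 other ways of processing and without inner harbour liver 3 (adjusted p = 0.0532). Without that liver, 4 of the 16 probes were called. Of the liver markers, ApoE (1.28 ± 0.39, adjusted p = 0.0301) and CYP7 (1.15 ± 0.29, adjusted p = 0.0129) were also called higher in the inner harbour at this sampling, and the summed level of the 7 markers was 5.53 to 6.00 in inner harbour livers and 5.61 to 6.12 in outer harbour livers. The part of these genes was not tested.

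At the first sampling, 1 of the 16 probes was called, AOX probe 3, which was lower in the inner harbour (-0.85 log2 units, limma adjusted p = 0.0498), where 9.24% of all tested probes were called lower, 5.25% higher and 14.5% in either direction. None of the 16 had groups that did not overlap, against 2.52% of all tested probes. The brightest AOX probe gave -0.80 ± 0.28 (adjusted p = 0.0556). AOX lay between -4.42 and -3.80 in inner harbour livers and between -4.33 and -2.24 in outer harbour livers, so the groups overlapped, and 3 outer harbour livers stood above all inner harbour livers. Over the other ways of processing, between 0 and 4 of the 16 probes were called at this sampling, and the call of the brightest AOX probe was gained in 4 of 14. Catalase differed by -0.42 ± 0.24 (adjusted p = 0.278), PMP70 by -0.25 ± 0.24 (adjusted p = 0.512) and MF1 by -0.04 ± 0.33 (adjusted p = 0.965). Both leukocyte markers on the list were called lower in the inner harbour here. The immunoglobulin gave a difference of -1.29 ± 0.39 (adjusted p = 0.0364). MHC_II had an adjusted p of 0.0322, and was well above background in 1 of 6 inner harbour livers and 6 of 6 outer harbour livers. Their summed level was -6.11 to -4.00 in inner harbour livers and -4.13 to -1.70 in outer harbour livers. Mhc2, a similarly named entry outside the list, gave -1.04 and was not called. α2-macroglobulin and transferrin were lower as well, with differences of -0.98 ± 0.18 (adjusted p = 0.00106) and -0.94 ± 0.26 (adjusted p = 0.0249). The summed level of the 7 liver markers was 4.81 to 5.85 in inner harbour livers, with a median of 5.21. In outer harbour livers it was 5.36 to 7.31, with a median of 6.25. The part of these markers in the AOX value was not tested.

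**Figure D3:**
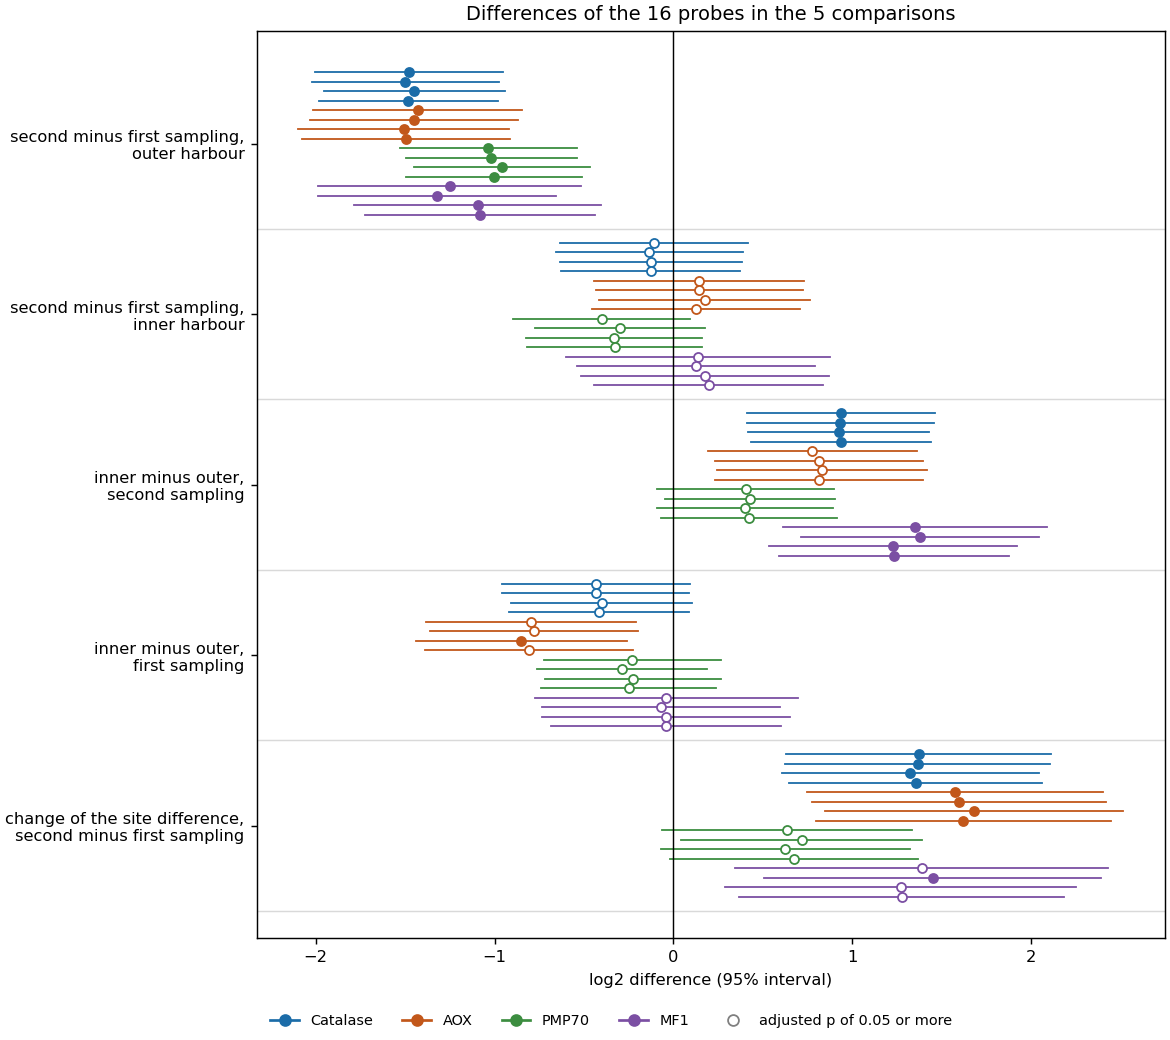
Log2 difference with its 95% interval (x axis) of each of the 16 probes in the 5 comparisons (y axis), coloured by gene, with open points for an adjusted p of 0.05 or more. The probes of a gene lie together in each comparison, and all 16 are below 0 in the outer harbour over time. In the change of the site difference all 16 lie above 0, with filled points for the 4 probes of catalase, the 4 of AOX and 1 of MF1.

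Set side by side over all groups (mean ± SD, n = 6 each), catalase averaged -1.71 ± 0.51 in the inner harbour and -2.64 ± 0.33 in the outer harbour at the second sampling, and -1.58 ± 0.51 in the inner harbour and -1.16 ± 0.27 in the outer harbour at the first. In the order of these means, only the step between the lowest group and the next one, outer and inner harbour at the second sampling, passed the test. AOX averaged -4.06 ± 0.40 in the inner and -4.84 ± 0.39 in the outer harbour at the second sampling, and -4.20 ± 0.24 in the inner and -3.41 ± 0.80 in the outer harbour at the first. The ranges of groups that are neighbours in this order overlapped at each step. PMP70 averaged -5.16 ± 0.40 in the inner and -5.58 ± 0.45 in the outer harbour at the second sampling, and -4.83 ± 0.29 in the inner and -4.58 ± 0.48 in the outer harbour at the first. Its order of groups was that of catalase, and no step between neighbours passed the test. MF1 averaged -5.71 ± 0.56 in the inner and -6.93 ± 0.83 in the outer harbour at the second sampling, and -5.88 ± 0.55 in the inner and -5.84 ± 0.37 in the outer harbour at the first, so 3 groups lay together. The outer harbour at the second sampling was the lowest group for all 4 genes. Group membership accounted for 66.5% of the variance over the 24 arrays for catalase, 55.2% for AOX, 50% for PMP70 and 44.5% for MF1, and slide for 1.42%, 0.306%, 3.72% and 29.0% in the same order of genes.

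Within groups, no pair of the genes passed the test of varying together. The deviations of each liver from its group mean were compared for 6 pairs of genes over 24 livers. Pearson's r lay between -0.133 and 0.491, and the smallest p adjusted over the 6 pairs was 0.124 (permutation test). The highest r was that of catalase and MF1 (r = 0.491, permutation p = 0.0207; Spearman's rho = 0.376, p = 0.0895, adjusted p = 0.277). It was 0.74, 0.378 and 0.492 within the 3 slides and 0.324 without the 2 livers farthest from the median of catalase.

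The genes whose level was most like that of each gene over the 24 arrays were chosen from 125 others by Pearson's r, as a description over arrays that share groups and slides. For catalase these were ApoE (0.714), Epoxide_hydrolase1 (0.704), the microsomal type of enzyme that hydrates epoxides, and THIO (0.688). For AOX they were UE2a (0.738), ABCC3 (0.680), a transporter of organic anions, and Epoxide_hydrolase1 (0.654). For PMP70 they were THIO (0.636), the lysosomal protease Cathepsin_L (0.635) and ApoE (0.616), and for MF1 THIO (0.667), solute_carrier_family31_1 (0.593) and phosphoenolpyruvate carboxykinase (0.586), an enzyme of gluconeogenesis. The median r over all 125 genes was 0.0652 for catalase, 0.200 for AOX, -0.0154 for PMP70 and 0.0414 for MF1. THIO and UE2a are given as the array spells them.

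The other genes of the pathway on the array moved in both directions, at the one scaling used for them. Of the 3 receptors tested, RXR, which pairs with PPARs on DNA, was lower at the second sampling than at the first in the outer harbour (-0.66 ± 0.18, limma adjusted p = 0.0113) and in the inner harbour (-0.51 ± 0.18, adjusted p = 0.0403). PPARa was called lower over time in the inner harbour (-1.51 ± 0.51, adjusted p = 0.0316), where it was well above background in 4 of 6 livers at the second sampling and 6 of 6 at the first. In the outer harbour PPARa gave -0.80 ± 0.51 (adjusted p = 0.328) and was well above background in 3 of 6 and 5 of 6 livers. PPARg, the receptor known for fat storage, was higher in the inner than in the outer harbour at the second (1.19 ± 0.30, adjusted p = 0.0123) and first sampling (0.98 ± 0.30, adjusted p = 0.0364). No receptor was called for the change of the site difference, against 10.1% higher and 0.775% lower of all 129 genes by their brightest probe. Over time 13.2% of all genes were called lower in the outer harbour and 7.75% in the inner. Called higher in the inner than in the outer harbour were 11.6% at the second and 5.43% at the first sampling.

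Of 5 genes of superoxide and peroxide handling, 1 was called higher and 0 lower over time in the outer harbour, against 2.33% higher and 13.2% lower of all 129 genes by their brightest probe. The one was Cu-Zn_SOD, which makes peroxide from superoxide, at 1.57 ± 0.19 (adjusted p = 1.13e-06), the opposite direction to catalase in the same livers. In the inner harbour over time 2 of the 5 were called higher and 1 lower, against 17.1% higher and 7.75% lower of all 129 genes. These were Cu-Zn_SOD (1.84 ± 0.19, adjusted p = 5.8e-08), Peroxiredoxine (0.49 ± 0.17, adjusted p = 0.0339), named like the peroxiredoxins that reduce peroxides, and Heme_oxigenase32 (-2.07 ± 0.44, adjusted p = 0.00099), named like the enzyme that degrades heme. Heme_oxigenase32 was also called for the change of the site difference (-3.29 ± 0.62, adjusted p = 0.00162), the opposite sign to catalase and AOX, and as higher in the inner than in the outer harbour at the first sampling (3.18 ± 0.44, adjusted p = 3.66e-05). At the second sampling 1 of the 5 was called higher in the inner harbour, XDh (1.22 ± 0.40, adjusted p = 0.0456), as catalase was, against 11.6% of all 129 genes.

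Of 6 lipid and sterol genes, 1 was called higher (CYP7) and 1 lower (ApoE) over time at either site, in the inner harbour with differences of 3.16 ± 0.29 (limma adjusted p = 1.11e-08) and -3.41 ± 0.39 (adjusted p = 2.49e-07). Of all 129 genes, 2.33% were called higher and 13.2% lower over time in the outer harbour, and 17.1% and 7.75% in the inner. ApoE and CYP7 were called higher in the inner harbour at the second sampling, against 11.6% of all genes. CYP7 alone was called higher for the change of the site difference, against 10.1%. None of the 6 was called at the first sampling, against 5.43% higher and 7.75% lower of all genes. No further gene of the list of other peroxisomal proteins was found on the array by the beginnings of names searched. THIO was outside that search, and whether it belongs to the list is not settled by its letters. It was called lower over time in the outer harbour (-0.62 log2 units).

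**Figure D4:**
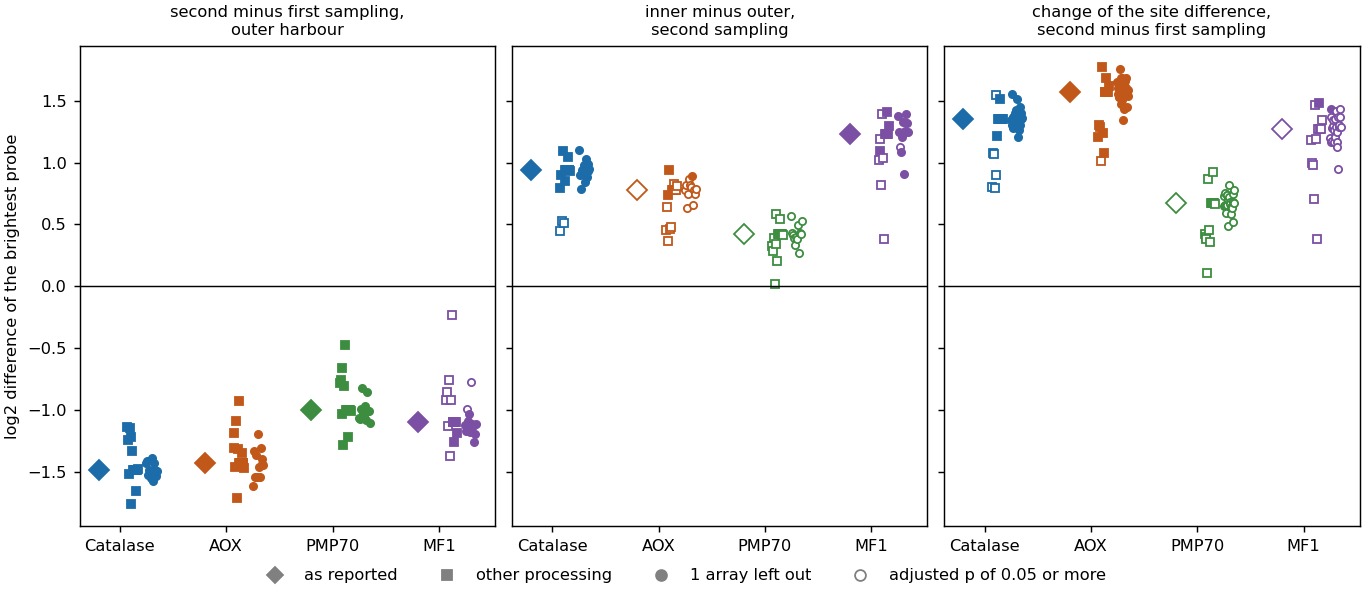
Log2 difference of the brightest probe of each gene (y axis) in 3 comparisons, as reported (diamonds), with other processing (squares) and with 1 array left out (circles), with open symbols for an adjusted p of 0.05 or more. In the outer harbour over time catalase, AOX and PMP70 keep filled symbols throughout, while MF1 has open ones, and in the other panels every value stays above 0.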

How the data were processed

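Liver RNA of 24 samples was labelled with Cy3 and hybridised to 1 array each. The authors obtained the spot intensity values with Agilent Feature Extraction, version 9.5.3.1, which subtracted background and removed trends within an array, per the file headers. A deposited table of log2 values for these arrays was also used. Its columns were checked against the log2 scanner signals, and 24 of 24 correlated best with their own array (lowest r 0.992). How the table was normalized and centred is unknown, and it served as an alternative.

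From the processed signals, log2 values of unflagged spots were averaged per probe and set relative to the 75th percentile of their array. Probes with at least 50% of spots well above background on at least 6 arrays were tested (476 probes). All arrays and the 4 groups entered a single limma fit (limma 3.58.1, R 4.3.3), with Benjamini-Hochberg adjustment over the 476 probes and a threshold of 0.05 (two-sided). The fit was also run on simulated data for the outer harbour over time, with noise drawn independently for each probe. There 0.725% of 276 unchanged probes were called. Of 50 probes each, 26% were called at a change of 0.5 log2 units and 74% at 1. Real probes of a gene vary together, so the simulation does not check the adjustment for such probes. Each gene is described by its brightest probe, that with the highest mean level, with counts over its 4 probes. No spot was saturated, and the number of arrays limits the precision. Correlations used 1e+05 permutations.

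The genes, the lists of pathway neighbours and markers and the tests were chosen with earlier results of these data known. Alternatives were 7 other scalings or values, other filters on dim probes, other samples in the fit, slide or replicate number as a block, averaging the probes of a gene, and leaving out each array. 29 pairs of equally numbered arrays were checked for deviations shared between groups, and 7 had a correlation over 0.1, so the numbers were not taken to pair samples.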

Additional observations from a re-analysis of the deposited data

Results flagged for a closer look

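3 livers stood apart within their group of 6. In 16 gene-by-group sets examined by Dixon's test, the gap of the farthest liver to its nearest neighbour divided by the group's range exceeded the critical value at the 95% level in 3, and chance flags about 1 in 20 such sets. For catalase in first-sampling livers of the inner harbour the ratio was 0.672, from liver 4 at -0.59 while the others lay between -1.97 and -1.52. For PMP70 in the outer harbour at the first sampling it was 0.676, from liver 4 at -3.66 while the others lay between -4.91 and -4.51. For MF1 in the outer harbour at the second sampling it was 0.692, from liver 2 at -8.53, where the signal was not well above background.

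The site difference changed between samplings for catalase, by 1.35 log2 units, and for AOX, by 1.57, in limma's test of the interaction (adjusted p = 0.0126 for both). Under 13 other ways of processing, the catalase call was lost in 5 and the AOX call in 1. Inner minus outer was 0.94 at the second sampling and -0.42 at the first for catalase, and 0.78 at the second and -0.80 at the first for AOX.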

How the results depend on the processing

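Of the 16 probes, those called lower over time in the outer harbour numbered 16, with 9 after normexp correction, which compresses signals near its offset of 50. They numbered 15 under quantile normalization and the 75th percentile of detected probes, 14 in the deposited values and 13 under the spike-in mean. Under the array median and the median of detected probes they numbered 12. Of the 10 probes left when only probes detected on all arrays were tested, 10 were called lower (4 of 4 genes after averaging). With any array left out, 14 to 16 of the 16 probes were called lower. Those called higher in the inner harbour at the second sampling numbered 8, with 3 after quantile normalization, 0 after scaling by the median of detected probes, 2 in the deposited values, 4 after normexp, 11 with the 75th percentile of detected probes and in a fit of the 2 compared groups, 7 or 8 of the probes otherwise (2 genes after averaging), and 4 to 12 with any array left out. The change of the site difference was called for 9, with 4 under quantile normalization, the 75th percentile of detected probes, the spike-in mean and the deposited values, 0 under the median of detected probes, 12 with slide as a block, 11 with the replicate block, 8 or 9 of the probes otherwise (2 genes after averaging), and 8 to 11 with any array left out. At the first sampling 1 probe was called, with 4 under quantile normalization, the deposited values and the probes detected on all arrays, 1 gene after averaging, 0 under array median, both scalings over detected probes, the spike-in mean, normexp, no filter, only the compared groups, the replicate block and the slide block, and 0 to 4 with any array left out. In the inner harbour over time it was 0 to 0 throughout. With the replicate number as a block, the counts were 0, 8, 0, 16 and 11 for the site differences at the first and second sampling, the inner and outer harbour over time and the interaction. Only the first of these lost its call, the MF1 interaction gained one (1.48, adjusted p = 0.0386), and the numbers pair no samples.

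Signs turned only in differences that were not called. Between sites at the first sampling, PMP70 was 7e-04 with the 75th percentile of detected probes. MF1 was there 0.21 with that scaling, 0.0934 with the array median, 0.11 with the median of detected probes, 0.002 with normexp and -0.20 to 0.0653 with an array left out. Over time in the inner harbour, AOX was -0.0942 with quantile normalization, -0.17 and -0.079 with the 75th percentile and median of detected probes and -0.0785 in the deposited values. MF1 was -0.14 and -0.0478 with the same percentile and median, and catalase was -0.28 to 0.0696 with an array left out. The correlation of catalase and AOX was -0.0248 with quantile normalization, -0.0686 with the median of detected probes and -0.117 in the deposited values. Without the 2 farthest livers, the correlation was 0.324 for catalase and MF1 and 0.402 for PMP70 and MF1. The cause of these shifts was not tested.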
